A study of Mus musculus with 15 samples.

Results

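T-cell receptor beta chains that recur between mice were examined among CD8+CD44+ T cells of NOD mice, which develop autoimmune diabetes on their own. The cells had not been retained in a magnetic separation with a tetramer of IGRP, a pancreatic autoantigen. A receptor was defined by its V family, its J cluster and the amino acid letters of its CDR3, the loop of the chain that contacts the peptide. It was counted as public when it occurred in 3 or more of the 8 CD8 libraries and in none of the 7 tetramer-positive libraries. This rule was met by 430 of the 48475 receptors of the CD8 libraries, and 52541 receptors were found in all 15 libraries together. The 45777 receptors found in 1 CD8 library only served for comparison and are called single-library receptors. The number of libraries chose the 430 receptors, so how often they recur is a description and was not tested.

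The CD8 libraries came from 4 Ifngr1-mutant NOD mice and 4 wild-type (WT) NOD mice, all 125 days old. Ifngr1 encodes the ligand-binding chain of the interferon-γ receptor, and the labels do not say which mutation the mice carried or in which cells it acts. Cells of the spleen and of lymph nodes that do not drain the pancreas were pooled within each mouse, stained with an H-2Kd tetramer carrying a peptide of IGRP, a protein of pancreatic beta cells, and separated magnetically. The CD8 libraries hold the flow-through cells, and the tetramer-positive (TET) libraries the retained cells, of 4 mutant and 3 WT mice. The tables hold receptor sequences only, so the labelled cell type could not be checked against marker genes. The CD8 libraries held 17116 to 32856 counts and 2013 to 9404 receptors. The TET libraries held 2536 to 60164 counts and 95 to 2159 receptors. Those of mutant mice 1 to 4 held 980, 2159, 1602 and 383 receptors, and those of WT mice 1 to 3 held 101, 119 and 95. Absence from TET was therefore judged mostly against receptors of mutant mice. The smallest CD8 library was that of WT mouse 1. Not being seen allows a share of up to 0.00499% in the deepest TET library and up to 0.118% in the shallowest (3 counts, counting error only). The deepest, that of mutant mouse 4, held 383 receptors, so a low limit by counts does not mean that many receptors were sampled. Absence from the TET libraries is therefore absence at this depth.

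The beta chain is assembled in the thymus from a V, a D and a J segment, with bases removed from the segment ends and other bases added between them. Receptors that need few added bases, or whose amino acids can be spelled by many nucleotide sequences, are known to recur in different individuals and are called public. In the mouse the beta chain locus lies on chromosome 6, where a pair of D segments each precede their own cluster of J segments, TRBJ1 and TRBJ2. TRBV13, a family of related V segments, is among the most used V families of mouse T cells. The tables give the V family and the J cluster, not the single segment.

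The 430 receptors spread over few libraries each. Of these, 329 occurred in 3 CD8 libraries, 72 in 4, 22 in 5, 6 in 6 and 1 in 7, and none occurred in all 8. Just outside the rule, 2051 receptors occurred in 2 CD8 libraries and in no TET library. A further 73 receptors occurred in 3 or more CD8 libraries but also in a TET library, which is 14.5% of the 503 receptors of that many CD8 libraries. Among single-library receptors 719 (1.57%) occurred in a TET library, so the requirement of absence removed a larger share of the widely shared receptors. The number that met the rule depended on the libraries. It was 260 without mutant mouse 4, 274 without mutant mouse 3 and 280 without WT mouse 4, the 3 libraries with 8228 or more receptors, and 358 when each CD8 library was subsampled to 17116 counts.

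The most widely shared of them, the TRBV13 and TRBJ2 receptor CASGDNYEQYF, is shown with its nucleotide sequences because the mice used different codons for the same 11 residues. Capitals mark the bases that differ among the sequences of a receptor, and each sequence runs from the conserved cysteine at the CDR3 start to the phenylalanine at its end.
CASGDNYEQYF 1: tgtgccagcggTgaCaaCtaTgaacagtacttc
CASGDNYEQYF 2: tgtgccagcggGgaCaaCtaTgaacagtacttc
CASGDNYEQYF 3: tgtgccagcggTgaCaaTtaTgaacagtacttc
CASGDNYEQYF 4: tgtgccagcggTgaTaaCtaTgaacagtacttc
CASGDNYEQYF 5: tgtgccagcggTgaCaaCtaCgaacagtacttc
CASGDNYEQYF had 5, 28, 2 and 24 counts in the CD8 libraries of mutant mice 1 to 4, against 0, 7, 12 and 2 counts in those of WT mice 1 to 4. It was found in each mutant library and in all WT libraries but that of WT mouse 1, the smallest, and its counts overlapped between the strains. Its first sequence occurred in 4 libraries, its second in 3 and sequence 3 in 2, while sequences 4 and 5 occurred in 1 library each. Sequence 5 rested on 1 count in WT mouse 4, which also held the first sequence. It differed from the first sequence by 1 base, which lay within the J match. Whether sequence 5 is an error of reading was not tested. The first sequence had 3 bases between the V and J matches, 14 bases matched to V and 16 to J.

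The receptor with the most nucleotide sequences was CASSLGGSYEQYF of TRBV12 and TRBJ2, found in 6 libraries with 10 sequences. They are shown because the same 13 residues were spelled in 10 ways.
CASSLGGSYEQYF 1: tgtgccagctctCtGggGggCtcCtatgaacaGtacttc
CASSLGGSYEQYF 2: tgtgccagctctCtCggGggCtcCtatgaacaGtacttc
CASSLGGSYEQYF 3: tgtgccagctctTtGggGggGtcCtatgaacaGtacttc
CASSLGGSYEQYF 4: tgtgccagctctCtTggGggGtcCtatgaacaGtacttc
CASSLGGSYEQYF 5: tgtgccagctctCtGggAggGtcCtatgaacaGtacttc
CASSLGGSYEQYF 6: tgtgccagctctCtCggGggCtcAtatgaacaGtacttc
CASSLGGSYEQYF 7: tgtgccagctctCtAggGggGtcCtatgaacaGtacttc
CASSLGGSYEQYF 8: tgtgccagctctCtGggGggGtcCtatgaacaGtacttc
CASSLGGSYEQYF 9: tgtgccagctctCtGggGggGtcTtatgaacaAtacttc
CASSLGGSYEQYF 10: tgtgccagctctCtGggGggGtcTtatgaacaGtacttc
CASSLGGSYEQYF had 1, 5, 0 and 11 counts in the libraries of mutant mice 1 to 4, against 0, 10, 12 and 6 counts in those of WT mice 1 to 4. Sequence 1 occurred in 2 mutant libraries and sequence 2 in 2 WT libraries, and each of the other 8 occurred in 1 library. In WT mouse 4 the receptor had 4 nucleotide sequences and in WT mouse 2 it had 3. Sequences 7, 8, 9 and 10 rested on 1 count each, and sequences 7, 9 and 10 came from WT mouse 4. Sequence 9 differed from sequence 10 by 1 base, which lay within the J match. Whether these sequences are separate or hold errors of reading was not tested. The strains overlapped in its counts, and none of its sequences was found in both strains.

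The opposite case was a receptor of TRBV15 and TRBJ2 with 15 residues, among the 5 of highest mean share, which had 1 nucleotide sequence in all of its 3 libraries.
TRBV15 receptor 1: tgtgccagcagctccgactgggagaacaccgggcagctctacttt
It had 82, 0, 1 and 0 counts in the libraries of mutant mice 1 to 4, against 0, 7, 0 and 0 counts in those of WT mice 1 to 4. Its sequence had 13 bases between the V and J matches, more than the mean of 10.01 bases in single-library receptors given below. The library of mutant mouse 1 held more than 10 times the counts of each other library. Whether reads were carried over between libraries was not tested for this receptor alone. When a receptor was left out of each library where all of its nucleotide sequences were held elsewhere at 10 or more times the counts, 419 receptors met the rule.

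The receptor with the highest mean share over the 8 libraries, at 0.167% of counts, was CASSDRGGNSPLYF of TRBV13 and TRBJ1. It is shown because 1 library held all of its sequences.
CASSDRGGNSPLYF 1: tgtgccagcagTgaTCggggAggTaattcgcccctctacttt
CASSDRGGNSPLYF 2: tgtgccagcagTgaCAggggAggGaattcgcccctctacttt
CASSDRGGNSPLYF 3: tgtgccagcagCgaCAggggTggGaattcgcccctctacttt
It had 0, 0, 0 and 409 counts in the libraries of mutant mice 1 to 4, which is 1.24% of the counts of mutant mouse 4, against 0, 12, 13 and 0 counts in those of WT mice 1 to 4. Sequence 1 occurred in mutant mouse 4 and WT mouse 3, sequence 2 in mutant mouse 4 and WT mouse 2, and sequence 3 in mutant mouse 4 alone. Most of its counts came from 1 mouse. Left out where another library held all of its sequences there at 10 or more times the counts, as above, it remained in mutant mouse 4 only and no longer met the rule, and the TRBV15 receptor remained in mutant mouse 1 only.

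The V families of the public receptors differed from those of single-library receptors in every CD8 library. Each receptor counted once, 255 of the 430 (59.3%) used TRBV13, against 32.1% of single-library receptors. TRBV12 gave 41 (9.53%), TRBV1 26, TRBV16 25, TRBV29 20, TRBV5 15 and TRBV14 11, and the families TRBV2, TRBV3, TRBV4, TRBV15, TRBV17, TRBV19, TRBV20 and TRBV31 gave 1 to 9 each. The remaining families of the CD8 libraries, of which TRBV26 with 206 receptors was the most used, gave none. Per 1000 CD8 receptors of the family, TRBV13 gave 15.8 public receptors and TRBV12 13.5, against 1.61 for TRBV19 and 1.41 for TRBV4. TRBV19 and TRBV12 had about as many CD8 receptors, 3101 and 3048, and gave 5 and 41 public ones. The locus holds several segments of TRBV13 and of TRBV12, but 1 of each other family that gave public receptors. Receptors of different segments with the same J cluster and CDR3 were thus counted as the same receptor only in TRBV13 and TRBV12. The part of this in the numbers was not tested.

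Within each library the same comparison was made between the public receptors it held and its own single-library receptors. The TRBV13 share was 53.4%, 63.7%, 63.0% and 60.2% among public receptors of mutant mice 1 to 4, and 66.7%, 56.8%, 60.3% and 60.1% in WT mice 1 to 4. Among single-library receptors it lay between 31.6% and 34.0% in the 8 libraries. The ranges did not overlap, and the mean over libraries was 60.5 ± 4.12% for public and 32.3 ± 0.967% for single-library receptors (SD, n = 8), a difference of 28.2 percentage points (two-sided exact sign-flip permutation p = 0.00781, adjusted 0.00859). That p is the smallest that 8 libraries allow. A public receptor lies in 3 or more libraries by the rule, so the 8 differences overlap and are not independent, and all p-values of this kind describe these 8 libraries.

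Of the 15 V families that made up at least 1% of all receptors of the CD8 libraries, 14 (93.3%) differed at an adjusted exact p under 0.05. Both TRBV13 and TRBV12, the tested families with several segments in the locus, were higher among public receptors. TRBV12 took 9.34 ± 1.26% of public and 6.19 ± 0.416% of single-library receptors (SD, n = 8), 3.16 points more, and was higher in 8 of 8 libraries. The other 12 called families (80%) were lower, with differences of -5.31 points for TRBV19, -3.84 for TRBV4, -3.15 for TRBV14 and -2.97 for TRBV3, and the smallest, -0.87, for TRBV20. TRBV1 was 0.23 points higher on average with a wide spread, 3.70% to 10.97% of public receptors, was higher in 3 of 8 libraries and was not called (exact permutation, adjusted p = 0.867), and its difference was -1.69 points without WT mouse 2. Shares add to 100%, so a higher share of TRBV13 lowers those of the other families. Which of the 12 would be lower among receptors outside TRBV13 was not tested. The call for TRBV12 was lost when mutant mouse 3 was left out, where it was 1.77 points higher (exact permutation, adjusted p = 0.0781).

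**Figure D1:**
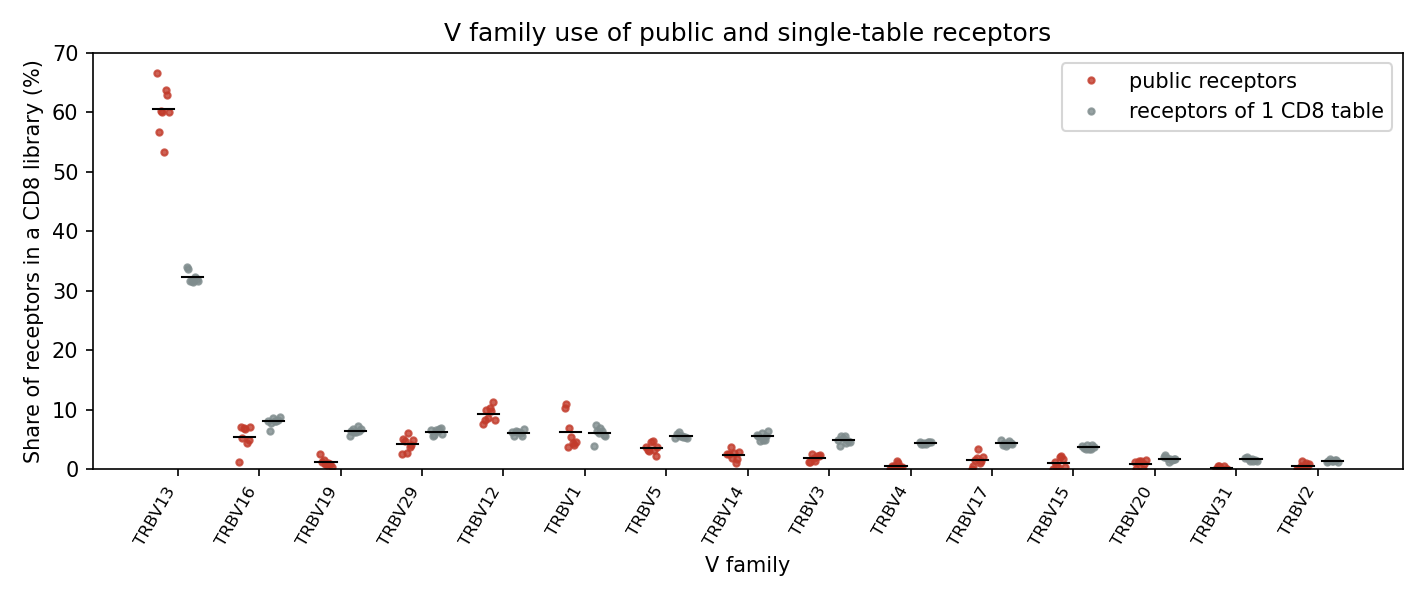
Share of receptors (%) using each V family in each of the 8 CD8 libraries, for public receptors (red) and for receptors of 1 CD8 library (grey). Points are libraries and black lines their means. TRBV13 lies between 53.4% and 66.7% among public receptors and between 31.6% and 34.0% among the others, and the families TRBV19 and TRBV4 lie lower among public receptors.

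TRBV13 receptors mostly begin with CASG or CASS, from the ends of the V segments. Of the 255 public TRBV13 receptors, 103 began with CASG, 139 with CASS and 13 (5.10%) with other letters, against 14.5% with other letters among single-library TRBV13 receptors. Of the 41 TRBV12 receptors, 15 began with CASSLG. Of the 26 TRBV1 receptors, 21 began with CTCSA. The 430 receptors held 417 distinct CDR3, and 173 of them (40.2%) had another public receptor of the same V family, J cluster and length 1 residue away.

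The public receptors were shorter. Their CDR3 had 10 to 16 residues, against 8 to 20 in single-library receptors. The most common length was 14 residues in both classes, with 31.4% of public and 29.7% of single-library receptors. Lengths of 11 and 12 residues took 11.6% and 18.4% of public receptors, against 4.11% and 10.04% of single-library receptors, and 16 residues took 1.63% against 9.70%. The mean length within a library was 12.99 to 13.14 residues for public and 13.95 to 14.03 for single-library receptors, with no overlap. The means over libraries, 13.06 and 13.98 residues, differed by -0.92 residues (exact sign-flip permutation p = 0.00781, adjusted 0.00859), and public receptors were shorter in 8 of 8 libraries. TRBV13 receptors were 12.8 residues long on average among public and 13.8 among single-library receptors, and TRBV12 receptors 13.3 and 14.1. TRBV29 receptors were 13.8 and 13.7 residues, so this family showed no shorter mean.

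J use was read from the J cluster, from the last 5 residues of the CDR3 and from the J length given in the tables. Public receptors used TRBJ2 more, with 76.3% against 71.3% of single-library receptors, 4.94 points higher on average and higher in 8 of 8 libraries (exact permutation, adjusted p = 0.00859). TRBJ2-7, the last segment of the TRBJ2 cluster and the only TRBJ2 segment with its J length, took 44.5%, 39.6%, 36.1% and 39.4% of public receptors in mutant mice 1 to 4, and 33.3%, 34.8%, 37.0% and 34.9% in WT mice 1 to 4. Among single-library receptors it took 18.9% to 22.7%, so the ranges did not overlap. The difference was 16.5 points (exact permutation, adjusted p = 0.00859). It was 18.6 points in mutant and 14.5 points in WT mice, and the strains did not differ in it beyond their spread (exact permutation p = 0.114, adjusted 0.786 over the 11 measures compared in this way, none of which was called).

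Of the 14 CDR3 ends tested, 5 (35.7%) differed. The end YEQYF of TRBJ2-7 took 31.6% of public and 13.1% of single-library receptors, 18.4 points higher. The end TEVFF of TRBJ1 was 1.61 points higher, at 8.42% and 6.81%, but the difference was -0.512 points when WT mouse 3 was left out and -1.91 points when 4 or more libraries were required. The ends GQLYF of TRBJ2-2 (2.93% and 6.72%), AEQFF of TRBJ2-1 (10.9% and 13.5%) and QAPLF of TRBJ1 (0.421% and 2.19%) were lower. Without mutant mouse 3 none of the 14 ends was called by the exact sign-flip test, and YEQYF was 21.1 points higher there (adjusted p = 0.0547, with 7 libraries).

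J use and length moved together. TRBJ2-7 was 16.5 points higher among public receptors of all lengths, but among receptors of 13 residues the difference was -0.902 points (exact permutation, adjusted p = 0.834). At this length the TRBJ2 difference was -8.64 points (adjusted p = 0.0645). The TRBV13 share was 29.7 points higher among public receptors of 13 residues (adjusted p = 0.0215). Other lengths were not tested on their own.

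Fewer bases lay between the V and J matches of public receptors, a measure chosen after the columns of the tables were seen. There were 6.55 to 7.45 bases on average in the 8 libraries, against 9.83 to 10.15 in single-library receptors. The means were 7.01 and 10.01 bases, a difference of -2.99 bases (exact sign-flip permutation p = 0.00781, adjusted 0.00859), and no library overlapped. After the stretch matched to a D segment was left out, 2.23 bases remained in public and 3.66 in single-library receptors, a difference of -1.44 (adjusted p = 0.00859). A D segment was named for fewer public clonotypes, and the shift lay in TRBD1. The share with no D named was 40.2% of public and 24.0% of single-library clonotypes, 16.2 points higher, and the share named TRBD1 was 27.2% and 42.8%, a difference of -15.7 points (exact permutation, adjusted p = 0.00859 for each). The share named TRBD2 was 33.1% of public and 33.3% of single-library clonotypes, pooled over the libraries and not tested. A short stretch between V and J leaves few bases from which a D segment can be named, so these measures are tied to each other.

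The TRBV13 share, the length and the V to J distance followed the number of libraries. In receptors found in no TET library and in 1, 2, 3, 4 and 5 or more CD8 libraries, the TRBV13 share was 31.7%, 47.8%, 57.4%, 58.3% and 82.8%. The mean length was 13.99, 13.48, 13.16, 12.89 and 12.69 residues in the same order. The bases between V and J matches were 10.02, 8.08, 7.39, 6.65 and 5.63. The receptors of 2 libraries, just outside the rule, lay between the single-library receptors and those of 3 libraries in all 3 measures. The share of TRBJ2-7 was 20.9%, 26.4%, 35.3%, 43.1% and 41.4%, that of TRBJ2 71.7%, 75.1%, 73.9%, 76.4% and 93.1%, and that of TRBD1 42.7%, 33.3%, 26.8%, 27.8% and 22.3%, so these did not follow it at every step. The last class holds 29 receptors, and all classes come from the same 8 libraries.

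**Figure D2:**
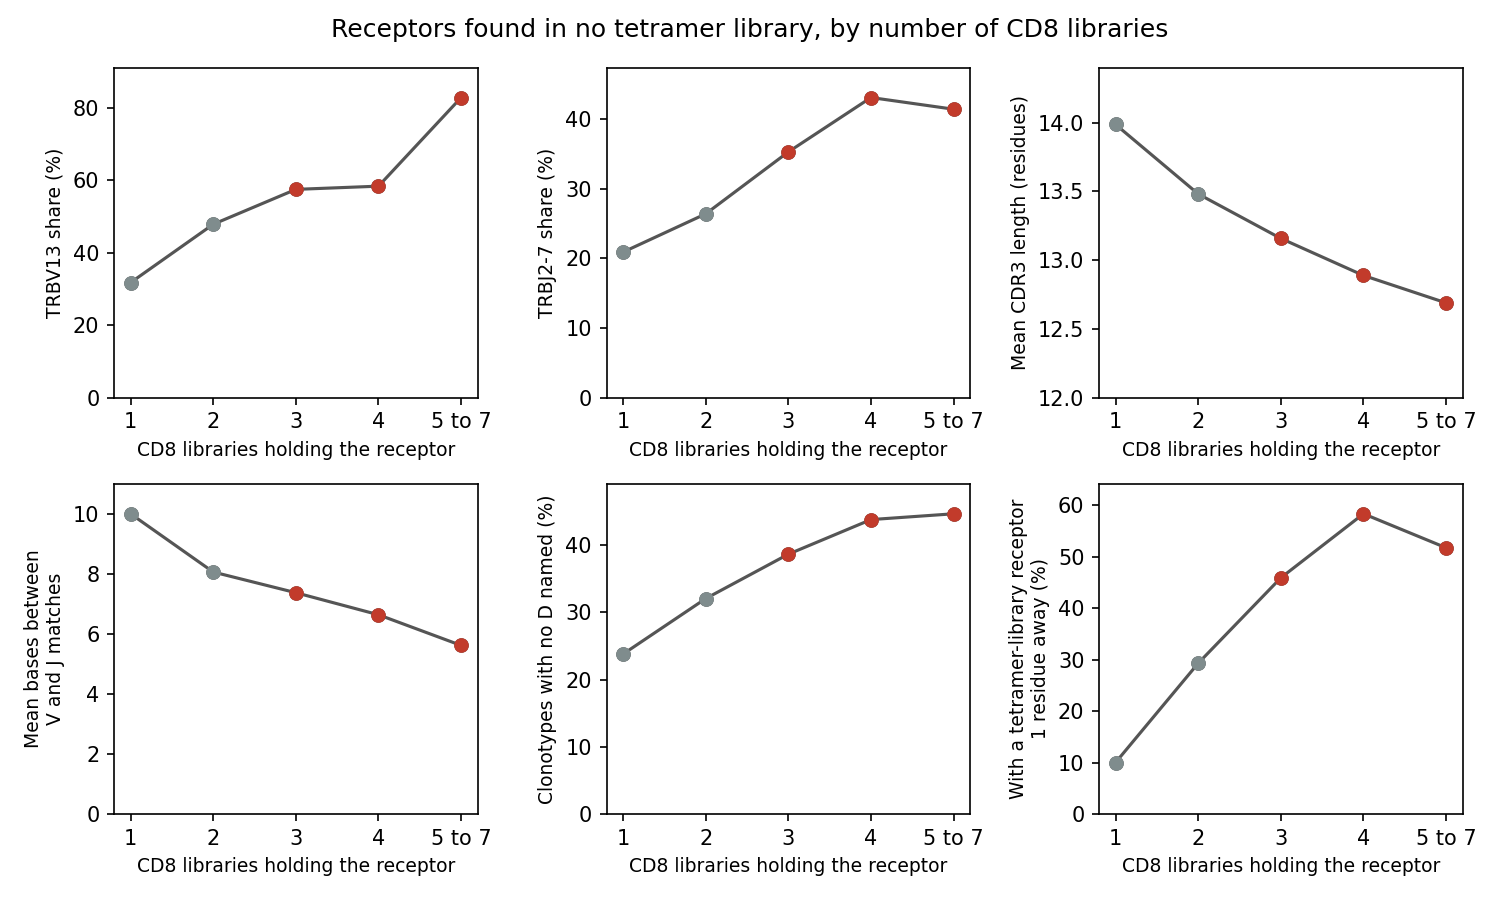
Features of receptors found in no tetramer library, by the number of CD8 libraries that held them (horizontal axis). Red points meet the rule of 3 or more libraries and grey points do not. Each point is a share (%) or mean over receptors, or over nucleotide clonotypes for the D segment. The length axis starts at 12 residues. From 1 library to 5 or more, the TRBV13 share is 31.7% at the low end and 82.8% at the high end, while the bases between V and J are 10.02 and 5.63.

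Although none of the public receptors was seen in a TET library, many had a close relative there. A receptor with the same V family, J cluster and length and with 1 different residue was present in the TET libraries for 49.2 ± 2.15% of public and 10.4 ± 0.567% of single-library receptors (SD, n = 8). The difference was 38.8 points, higher in 8 of 8 libraries (exact sign-flip permutation p = 0.00781, adjusted 0.00859). Among receptors of TRBV13 alone it was 45.8 points and among receptors of 13 residues 40.7 points. Of the 255 TRBV13 receptors 169 (66.3%) had such a relative, of the 26 TRBV1 receptors 13 and of the 15 TRBV5 receptors 7, but none of the 41 TRBV12 receptors did. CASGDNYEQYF had one and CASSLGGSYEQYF had none. A relative must share the V family, so these values depend on how many receptors of the family the TET libraries held. That number is not given here. Of the 73 receptors of 3 or more CD8 libraries found also in a TET library, 62 used TRBV13 and 0 used TRBV12. The CDR3 letters of 25 public receptors occurred in a TET library under another V family or J cluster. Relatives 1 residue away were not particular to the TET libraries. Each receptor counted once, 48.4% of the 430 had one among the 5002 receptors of the TET libraries. Among the 430 themselves, 173 (40.2%) had another public receptor as such a relative.

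The 73 receptors of 3 or more CD8 libraries that were also found in a TET library used TRBV13 in 62 cases (84.9%), against 59.3% of the 430 absent from TET. Their mean length was 12.8 residues, they had 5.88 bases between V and J matches, no D was named for 51.8% of their clonotypes and 69.9% had a TET relative 1 residue away. Pooled in the same way, the 430 had 13.1 residues, 7.14 bases, 40.4% and 48.4%. TRBJ2 took 58.9% of the 73, against 75.6% of the 430 and 71.5% of single-library receptors. Which of the 503 receptors fall on which side is set by the rule, so these shares are descriptions.

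Most public receptors were encoded by several nucleotide sequences. Over all CD8 libraries, 35 of the 430 (8.14%) had 1 nucleotide CDR3, 137 had 2, 173 had 3 and 85 had 4 or more, with a median of 3 and a maximum of 10. The number cannot be compared directly with that of single-library receptors, since it adds up over libraries. Within a library, a public receptor had 1.05, 1.12, 1.18 and 1.20 nucleotide CDR3 on average in mutant mice 1 to 4, and 1.00, 1.09, 1.11 and 1.17 in WT mice 1 to 4. Single-library receptors had 1.01 to 1.04. The difference was 0.087 sequences per receptor, and public receptors were higher in 7 of 8 libraries (exact sign-flip permutation p = 0.0156, adjusted 0.0156). The exception was WT mouse 1, where each of the 78 public receptors had 1 sequence, and without this library the difference was 0.106.

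More counts give more chances to see a second sequence. Public receptors had a median of 4 counts in the libraries that held them, and 14.9% of these presences rested on 1 count, against a median of 3 counts and 29.2% in single-library receptors. In classes of equal counts, the shares with a second sequence were alike at 2 counts and farther apart at more. With 2 counts, 4.37% of public and 4.32% of single-library presences had 2 or more nucleotide CDR3. With 6 to 10 counts the shares were 16.2% and 3.86%, and with over 20 counts 35.9% and 2.99%. Restricted to receptors of 3 to 10 counts, the difference per receptor was 0.082 sequences. It was 0.086 after a sequence 1 base from another with 10 or more times its counts in the library had been merged into it. Receptors of few counts cannot meet this ratio, so errors of 1 base were not excluded.

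**Figure D3:**
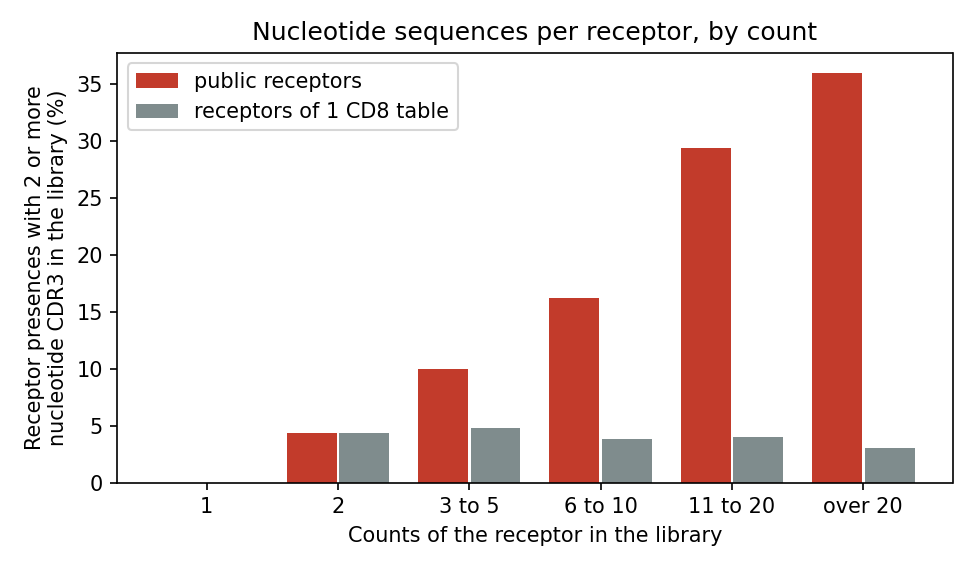
Share of receptor presences (%) with 2 or more nucleotide CDR3 in the library, by the number of counts the receptor had there, for public receptors (red) and receptors of 1 CD8 library (grey). Each bar pools the presences of all 8 CD8 libraries. The classes have 4.37% and 4.32% at 2 counts and 35.9% and 2.99% at over 20 counts.

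Sharing of a receptor was most often not sharing of a nucleotide sequence. The 430 receptors comprised 1214 distinct nucleotide sequences, of which 295 occurred in more than 1 library. Of the 1750 pairs of libraries that shared a public receptor, 536 (30.6%) also shared an identical nucleotide CDR3 for it. This was not particular to public receptors. Over all CD8 receptors, each pair of libraries also shared fewer nucleotide clonotypes than receptors. They numbered 12 and 30 in the pair with the fewest shared nucleotide clonotypes, and 94 and 275 in the pair with the most. For 167 receptors (38.8%) no nucleotide sequence occurred in more than 1 library, and for 49 (11.4%) 1 sequence was present in all their libraries. The TRBV13 receptor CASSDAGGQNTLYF was of the first kind, with 8 nucleotide sequences, each in 1 library. It had 0, 0, 7 and 16 counts in mutant mice 1 to 4, against 23, 0, 10 and 0 in WT mice 1 to 4, and 4 of its sequences lay in mutant mouse 4. A TRBV1 receptor of 14 residues had 8 sequences in 3 libraries, 5 of them in WT mouse 4, with 12 counts in mutant mouse 4, against 23 in WT mouse 2 and 6 in WT mouse 4.

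Of 3 further receptors, each found in 6 libraries, some shared a nucleotide sequence widely. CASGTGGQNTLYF, of TRBV13 and TRBJ2, had 11, 8, 2 and 9 counts in mutant mice 1 to 4, against 0, 7, 4 and 0 in WT mice 1 to 4. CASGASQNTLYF had 0, 10, 0 and 4 counts in mutant mice, against 4, 10, 5 and 3 counts in WT mice, and 1 of its 3 sequences lay in 4 libraries. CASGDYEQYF, a CDR3 of 10 residues with 2 nucleotide sequences, had 0, 16, 0 and 5 counts in mutant mice, against 19, 23, 3 and 11 in WT mice, and 1 of the sequences lay in 5 libraries. The highest share of these 3 in a library was 0.111%, for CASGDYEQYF in WT mouse 1, and the counts of each overlapped between the strains.

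Whether the Ifngr1 mutation goes with a change in the public receptors was addressed by their share in each mouse. Public receptors made up 3.32%, 2.76%, 2.37% and 2.56% of the receptors of mutant mice 1 to 4, against 3.87%, 2.99%, 2.80% and 2.65% in WT mice 1 to 4. The mean was 2.75 ± 0.412% in mutant and 3.08 ± 0.550% in WT mice (SD, n = 4 each), a difference of -0.326 points with overlapping groups (two-sided exact permutation p = 0.429, adjusted 0.714). By counts they made up 4.40%, 4.91%, 3.35% and 4.97% in mutant mice, against 5.19%, 3.88%, 3.99% and 3.82% in WT mice. The mean was 4.41 ± 0.751% in mutant and 4.22 ± 0.653% in WT mice (SD, n = 4 each), a difference of 0.185 points (exact p = 0.714, adjusted 0.714). Neither difference exceeded the spread between mice, and 4 against 4 mice cannot give a p below 0.0286. Public receptors were chosen by absence from TET libraries, which held more receptors in mutant than in WT mice. The part of this in the strain comparison was not tested.

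The number of public receptors in a library followed its number of receptors. There were 146, 182, 219 and 241 in mutant mice 1 to 4, among 4397, 6600, 9260 and 9404 receptors. In WT mice 1 to 4 there were 78, 155, 189 and 218, among 2013, 5186, 6759 and 8228. The share of receptors was highest in the smallest library of each strain.

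**Figure D4:**
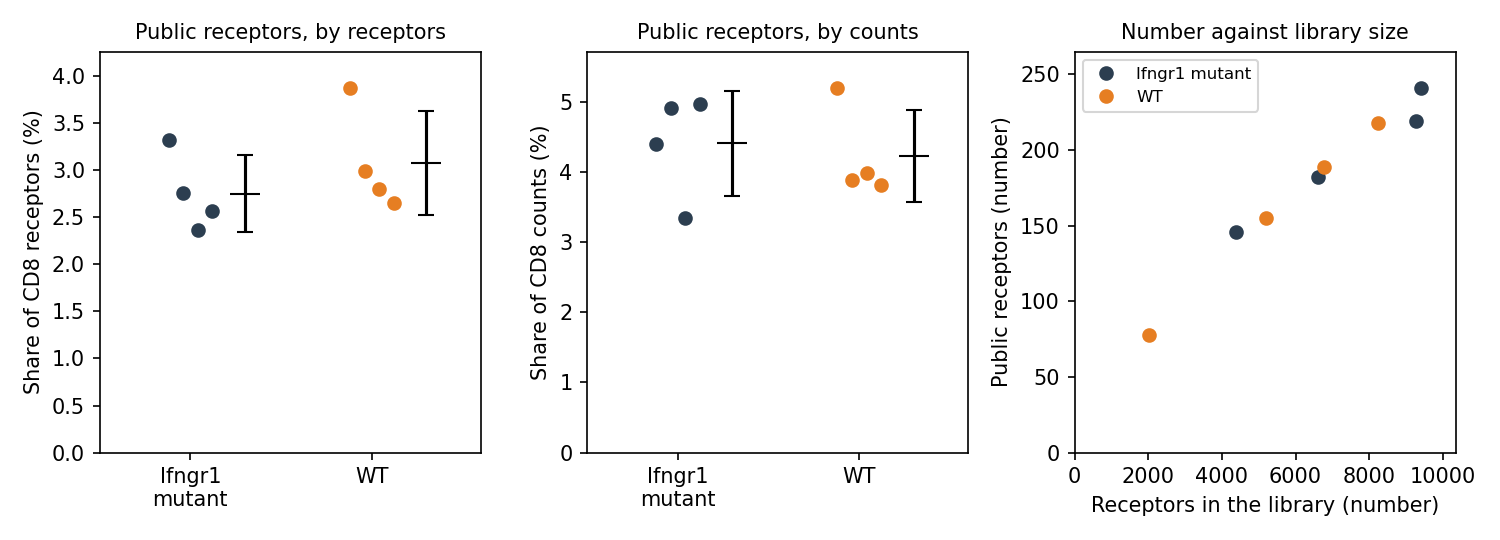
Public receptors as a share of receptors (%, left) and of counts (%, middle) in the CD8 libraries of Ifngr1-mutant and WT mice, with mean and SD (n = 4 each), and their number against the number of receptors of the library (right). The groups overlap in both shares, and the number of public receptors is 78 in the smallest library and 241 in the largest.

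Most public receptors occurred in both strains. They numbered 377 (87.7%), with 38 receptors in mutant mice only and 15 in WT mice only. The rule by itself favours this. With 4 libraries per strain, a receptor of 5 or more libraries must lie in both strains. Most choices of 3 or 4 libraries also include both. The share in both strains is therefore a description, and that of all 503 receptors of 3 or more libraries was not computed. Mutant libraries held 55.2% of all presences of public receptors and 57.2% of the presences of all CD8 receptors. The part of library size in the numbers found in 1 strain only was not tested. Only 5 receptors were in all 4 mutant libraries and 4 in all 4 WT libraries. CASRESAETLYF of TRBV13 had 14, 14, 0 and 3 counts in mutant mice 1 to 4 and 0 in each WT mouse. A receptor of 15 residues had 10, 3, 2 and 2 counts in mutant mice 1 to 4, and 0 in each WT mouse. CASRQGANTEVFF had 0 counts in each mutant mouse, against 13, 25, 4 and 0 in WT mice 1 to 4. Where a receptor was not seen, its share could still be up to 0.00913% to 0.0175%, depending on the library (3 counts), so presences of 1 to 3 counts lie near this limit.

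No public receptor was called different between strains. Of the 503 receptors of 3 or more CD8 libraries, 392 with at least 10 counts were tested with edgeR, 333 of them absent from TET libraries. At an adjusted p under 0.05, 0 (0%) were called, and the lowest adjusted p was 0.307. At an unadjusted p under 0.05, 47 (12%) passed, 41 of them absent from TET libraries, and 28 of these 41 were higher in mutant mice. With 1 library left out, 4 to 26 passed, and the direction was not kept, since 10 of 22 absent from TET were higher in mutant mice without mutant mouse 3 and 1 of 7 without WT mouse 1. The median log2 fold change, mutant over WT, was 0.01 for the 333 and 0.01 for the 392 receptors, but for those absent from TET it was 0.60 with the replicate number as a block, 0.33 with no minimum count, 0.34 without WT mouse 4 and -0.12 with total counts as the only scaling. DESeq2 called 0 as well, with a median of 0.26, and had 6 at an unadjusted p under 0.05.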

How the data were processed

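Receptor beta chain transcripts were amplified by 5′ RACE with 9-base unique molecular identifiers and sequenced as 300-base paired reads, per the labels' protocols. The authors deposited 1 table per library with the count of each nucleotide CDR3. Whether a count is reads or molecules is not stated. The deposited fraction of each CDR3 was not used, since shares were recomputed from counts. The sources used here name no aligner, clonotype caller or genome build.

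Entries without a TRBV segment (4, with 6 counts) were left out. Receptors were identical in V family, J cluster and amino acid CDR3. The J length of the tables lay 19 bases above the RefSeq segment length (GRCm38.p6), which named TRBJ2-7. The V to J distance is the gap between matched stretches; 2.32% of CD8 clonotypes had overlapping matches, counted as 0.

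Public and single-library receptors were compared within each CD8 library by two-sided exact sign-flip permutation over 8 differences (256 patterns). Each receptor counted once, but the V to J distance and the D segment were averaged over nucleotide clonotypes. Strains were compared by exact permutation over 70 splits. P-values were Benjamini-Hochberg adjusted within 11 single values, 15 V families, 14 CDR3 ends and the strain shares. Receptors of 3 or more CD8 libraries and 10 or more counts were tested with edgeR 4.0.16 (quasi-likelihood), with DESeq2 1.42.0 as an alternative, in R 4.3.3 and Python 3.11.15. Both tests were checked on simulated data. For edgeR these had large changes and more counts than the libraries, so its ability to find a change at the real depth was not tested. The labels give every library as its own mouse within a fraction. Whether replicate numbers shared by the strains pair the mice could not be told. Same-numbered deviations correlated at -0.0693, -0.0795, -0.0509 and -0.00967 over 392 receptors, which are not independent. Most of these receptors were seen in few libraries, so such correlations cannot exclude a pairing. The number of receptors in a library rose with the replicate number in both strains. Strains were therefore also compared with the replicate number as a block. No column of unknown samples was found.

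The members, measures and lists were chosen with earlier results of these data known. Named receptors were those of most libraries, most nucleotide sequences or highest mean share, and those of 1 strain only, by the rule set with the design. The V to J distance, TRBJ2-7 and the restrictions to TRBV13 and to 13 residues were added after the tables were seen. Intervals and limits cover counting error only.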

Additional observations from a re-analysis of the deposited data

Results flagged for a closer look

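Among 84 groups of 4 libraries screened for a library far from the others, 4 were found, and chance alone gives about 1 in 20. Public receptors took 5.19% of counts in WT mouse 1, against 3.82% to 3.99% in the other WT mice. That library had the fewest receptors, 2013, and its part in this value was not tested. The end SDYTF of TRBJ1 took 1.28% of the public receptors of WT mouse 1, which is 1 of its 78. TRBV31 took 0.549% of the public receptors of mutant mouse 2 and none in the other mutant mice, a matter of 1 receptor. Public clonotypes of mutant mouse 4 had 2.08 bases outside the D match, against 2.28 to 2.31 in the other mutant mice.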

How the results depend on the processing

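Given here are the alternatives that changed a call or count that answers a comparison, or that reversed a value called before or after the change. Among single V families and CDR3 ends, another 42 values lost and 22 gained a call over all alternatives, without a change of direction. The number of public receptors was 2481 for 2 or more libraries and 101 for 4 or more, 296 when entries of 1 count were left out, and 435 without both mutant TET 4 and WT TET 2. With 4 or more libraries, TEVFF was -1.91 points, REQYF of TRBJ2 -1.10 and TRBV20 0.090, all reversed, with 1 V family and 1 end called higher and 5 ends lower. Without entries of 1 count, 1 V family was called higher and 5 ends lower. With receptors of TET libraries kept, 1 end was called higher. Among TRBV13 receptors, the TRBJ2 difference was 2.87 points (adjusted p = 0.172). Among receptors of 13 residues, TRBD1 was -7.96 points (adjusted p = 0.115), while TRBJ2 (-8.64), TRBJ2-7 (-0.902), GEQYF of TRBJ2 (-1.95) and TRBV5 (0.205) were reversed, and 1 V family and 1 end were called higher. The cause was not tested. These p-values come from exact permutation.

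With each library left out in turn, the number of public receptors ranged between 260 and 453, V families called higher between 1 and 2 and lower between 7 and 11, and ends called higher between 0 and 3 and lower between 0 and 5. TEVFF was -0.057 without mutant mouse 3 and -0.512 without WT mouse 3, up to 2.93, and REQYF was -1.13 without WT mouse 4, up to 0.672. Differences not called over all 8 libraries also crossed 0, reaching -1.69 for TRBV1, 0.235 for SDYTF and -0.043 for SPLYF of TRBJ1, and -0.677 for NTLYF, 0.00794 for DTQYF and 0.022 for ETLYF of TRBJ2. With 7 libraries the smallest exact p is larger, so calls can be lost by construction. TRBV13 stayed called, 26.9 to 31.0 points higher, as did length (-0.99 to -0.89 residues), the V to J distance (-3.28 to -2.88 bases) and the TET relatives (37.8 to 41.8 points).

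The strain differences ranged between -0.501 and -0.0219 points of receptors and between -0.253 and 0.667 points of counts, which crosses 0, and none was called. With the replicate number as a block, the strain differences were -0.326 points of receptors (adjusted exact p = 0.25) and 0.185 points of counts (adjusted exact p = 0.75). By receptors the mutant mouse was lower in each same-numbered pair, so this exact p is the smallest the block allows. The blocked exact test could therefore not call a difference in either share. With the block, edgeR called 0 receptors, with 0 at an unadjusted p under 0.05. Depth limits what can be said of a single public receptor, since 14.9% of presences rested on 1 count.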
